A study of Mus musculus with 16 samples.

Results

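The genes described are the 9 that make, recycle and restrain polyamines, taken by their symbols among the 31274 features of an expression table of mouse uterus: Odc1, Amd1, Srm, Sms, Sat1, Smox, Azin1, Oaz1 and Oaz2. The set was proposed with earlier results of these data in view. All 9 were found, each as 1 row, and all 9 reached the mean level of 1 FPKM required of a feature to be tested, as did 15408 features in all. FPKM is the number of fragments per kilobase of transcript and per unit of sequencing depth, so levels may be compared between genes.

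Polyamines are small positively charged molecules that bind RNA and DNA and are needed for translation and cell growth. Ornithine decarboxylase turns ornithine into putrescine, and spermidine synthase and spermine synthase extend it with aminopropyl groups that come from decarboxylated S-adenosylmethionine. The way back runs through acetylation and oxidation. Antizymes bind ornithine decarboxylase and hand it to the proteasome, and antizyme inhibitors bind the antizymes in its place. In the rodent uterus ornithine decarboxylase is known for its induction around implantation and decidualization.

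The libraries came from whole uteri of mice of 2 genotypes, PgrcrePgrALsL/+ (PRA below) and PgrcrePgrBLsL/+ (PRB below). A Cre driven from the progesterone receptor gene removes a stop cassette in them and switches on a transgene for isoform A or isoform B of that receptor. The females were housed to 8 weeks of age. They had been without ovaries for 2 weeks, and tissue was taken 6 h after oil or after progesterone (P4), with 4 biological replicates in each of the 4 groups. All 4 groups therefore carry the Cre driver and a transgene, and no genotype without a transgene was analysed here. The series title speaks of the uterine epithelium, but the driver follows the receptor gene, which stroma and muscle of the uterus also express, and the tissue is the whole organ. A protocol field of the labels speaks instead of mated females taken on day 4 of pregnancy; groups were taken from the titles, the sample characteristics and the design text, and the data did not settle that conflict. In the labels the PRA libraries hold the positions of row A and the PRB libraries those of row B, with oil before P4 within each row, so that position and group cannot be told apart.

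Between 14807 and 15336 features reached 1 FPKM per library. Total FPKM was 499748 to 528785 with oil and 572846 to 595748 with P4. The spacing of the lowest values, searched only within a fixed range of depths, implied 51.9 M to 67.2 M fragments per library. If that range holds the true depth, at least 104 fragments lie behind a level of 1 FPKM for a 2 kb transcript. The lowest value of any member was 11.0 FPKM. The targeted gene Pgr had levels of 64.9 ± 5.52 (oil) and 73.9 ± 1.80 FPKM (P4) in PRA, against 83.5 ± 4.49 (oil) and 112 ± 22.3 FPKM (P4) in PRB (SD, n = 4), and the values do not separate the isoforms. PRB P4 replicate 3 stood apart from its group on the second principal component (8.31% of the variance), and its Pgr level was 78.5 FPKM against 121 to 126 in the other PRB P4 libraries. Markers of epithelium, stroma, smooth muscle, endothelium and leukocytes were present in every library. Of the 3 ovary markers, the aromatase gene Cyp19a1 reached at most 0.0139 FPKM, but Inha was at 5.09 to 26.8 FPKM and Star at 7.85 to 11.4 FPKM. In tissue RNA, a lower level per cell and fewer cells of the type that makes it cannot be told apart.

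With P4, 7 of the 9 members rose and 1 fell in PRA, and 8 rose and 1 fell in PRB. Over all features tested, 69.8% were called in PRA (36.6% higher and 33.2% lower) and 69.1% in PRB (36.2% higher and 32.9% lower), so a changed gene is the usual case in this comparison. The median log2 change of the members was 0.91 in PRA and 0.93 in PRB, beside medians of 0.01 and 0.00 over all features. Values of the oil and P4 libraries did not overlap for 8 members in PRA (66.2% of all features) and for 9 in PRB (61%). Changes are differences of log2(FPKM + 1) from 1 limma model of the 16 libraries, with Benjamini-Hochberg adjustment over all features, and a gene is said to rise, fall or be called where the adjusted p was under 0.05. The p-values measure the spread between the labelled biological replicates.

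**Figure D1:**
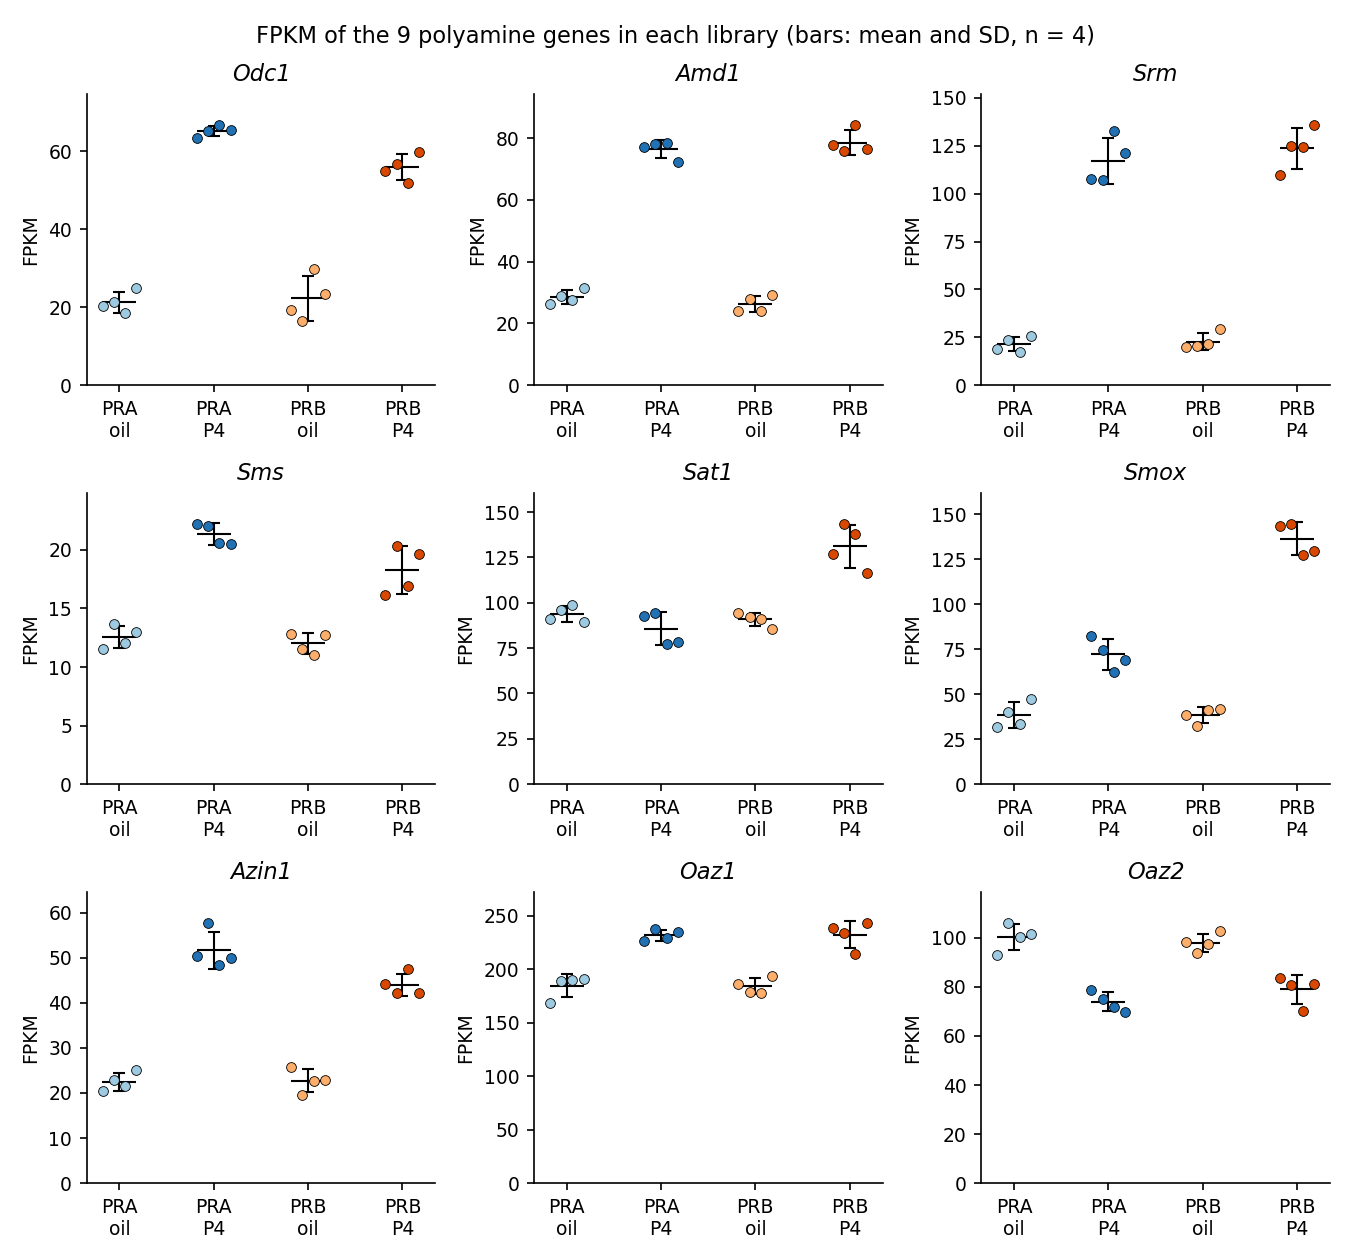
FPKM of the 9 polyamine genes in each of the 16 libraries, 1 panel per gene with its own axis from 0, with the mean and SD of 4 libraries per group as bars. Odc1, Amd1, Srm, Sms and Azin1 are high in both P4 groups, Sat1 is high in PRB P4, and Oaz2 is lower in both P4 groups.

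Odc1 encodes ornithine decarboxylase, which makes putrescine and is the usual point of control of the pathway (chromosome 12, 17544794 to 17551505, plus strand, GRCm38). It measured 20.3, 21.3, 18.4 and 24.8 FPKM in PRA oil and 63.3, 65.2, 66.7 and 65.3 FPKM in PRA P4. In PRB it measured 19.4, 16.6, 29.9 and 23.3 FPKM with oil and 54.9, 56.8, 51.8 and 59.8 FPKM with P4. Every P4 library was above every oil library, and the P4 libraries of each strain lay close together. Odc1 rose by 1.58 on the log2 scale in PRA (SE 0.13, limma, adjusted p = 7.74e-08) and by 1.32 in PRB (adjusted p = 5.1e-07).

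Srm encodes spermidine synthase, which turns putrescine into spermidine (chromosome 4, 148591503 to 148594993, plus strand). Its values were 19.1, 23.6, 17.5 and 25.7 FPKM in PRA oil and 108, 107, 133 and 121 FPKM in PRA P4. In PRB they were 19.8, 20.3, 21.6 and 29.1 FPKM with oil and 109.9, 125, 124 and 136 FPKM with P4. Mean FPKM was 5.46-fold higher with P4 in each strain, the largest change among the 9 members. The log2 changes were 2.40 in PRA (SE 0.13, limma, adjusted p = 1.47e-09) and 2.41 in PRB (adjusted p = 1.35e-09).

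Sms encodes spermine synthase, the next step, which makes spermine from spermidine (chromosome X, 157443855 to 157492287, minus strand). It measured 11.5 to 13.7 FPKM in PRA oil and 20.5 to 22.2 FPKM in PRA P4, and 11.0 to 12.8 FPKM in PRB oil and 16.1 to 20.4 FPKM in PRB P4. Its rise was the smallest of the 4 synthesis genes, 0.72 in PRA (SE 0.08, limma, adjusted p = 9.14e-07) and 0.56 in PRB (adjusted p = 1.16e-05). The ratio of Sms to Srm, taken per library, went from a mean of 0.594 with oil to 0.184 with P4 in PRA, and from 0.541 to 0.148 in PRB, as a description with no test.

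Amd1 encodes S-adenosylmethionine decarboxylase, which supplies the aminopropyl groups for both synthases (chromosome 10, 40287458 to 40302186, minus strand). Its level was 26.1 to 31.5 FPKM in PRA oil and 72.3 to 78.4 FPKM in PRA P4, and 23.9 to 29.1 FPKM in PRB oil and 75.7 to 84.3 FPKM in PRB P4. Amd1 rose by 1.39 in PRA (SE 0.07, limma, adjusted p = 6.61e-10) and by 1.55 in PRB (adjusted p = 2.28e-10). How the authors' counting divided reads between Amd1 and its near copy Amd2 is uncertain. Of the 50-base windows of annotated Amd1 exons, 76.7% also occur in Amd2, and the Amd2 to Amd1 ratio stayed between group means of 0.761 and 0.841. Shorter stretches are shared with other annotated genes for Odc1 (24.3% of windows), Oaz1 (21.0%) and Sms (17.5%); the gene that shares most with each of the 3 is not listed in the table.

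Proliferation markers moved in the same libraries. The summed level of Mki67, Top2a, Pcna and Rrm2 was 48.2 to 99.7 FPKM in PRA oil and 141 to 205 FPKM in PRA P4, and 55.3 to 94.3 FPKM in PRB oil and 87.2 to 125 FPKM in PRB P4. Of these 4 markers, 3 rose in PRA and 1 rose in PRB, and 2 were lower in PRB than in PRA with P4. None of the 4 was listed at 0 in all libraries. Marker sums of other tissues had other ranges with P4 as well: that of skeletal muscle (Acta1, Ckm and Myh4) lay between 8.08 and 61.5 FPKM with oil and between 44.5 and 144 FPKM with P4, and that of ovary (Inha, Cyp19a1 and Star) between 23.9 and 37.6 FPKM and between 14.1 and 17.6 FPKM. The skeletal muscle sum is nearly all Acta1, with means of 34.2 and 116 FPKM with oil and P4 in PRA and of 30.3 and 57.6 FPKM in PRB. Ckm was at means of 0.543 and 0.475 FPKM in PRA and of 0.599 and 0.254 FPKM in PRB, and Myh4 reached at most 0.00284 FPKM. The part of these markers in the changes of the members was not tested.

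Azin1 encodes antizyme inhibitor, a relative of ornithine decarboxylase without its activity that binds antizymes (chromosome 15, 38487427 to 38519266, minus strand). It measured 20.4, 22.8, 21.6 and 25.0 FPKM in PRA oil and 50.4, 57.8, 48.4 and 49.9 FPKM in PRA P4. In PRB it measured 25.7, 19.7, 22.8 and 22.9 FPKM with oil and 44.1, 42.2, 47.5 and 42.1 FPKM with P4. Azin1 rose in both strains, by 1.17 in PRA (SE 0.08, limma, adjusted p = 1.25e-08) and by 0.93 in PRB (adjusted p = 1.23e-07).

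The antizyme genes went different ways. Oaz2, which encodes antizyme 2 (chromosome 9, 65668001 to 65690300, plus strand), was 93.1, 106, 100.3 and 102 FPKM in PRA oil and 78.9, 75.1, 72.0 and 69.8 FPKM in PRA P4. In PRB, Oaz2 was 98.3, 93.6, 97.7 and 103 FPKM with oil and 83.6, 80.9, 70.4 and 81.4 FPKM with P4. It was the only member that fell, with log2 changes of -0.43 in PRA (SE 0.06, limma, adjusted p = 1.07e-05) and -0.31 in PRB (adjusted p = 0.000264), with no overlap of the groups in either strain.

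Oaz1, which encodes antizyme 1 and was the most abundant member in all 4 groups (chromosome 10, 80826656 to 80829290, plus strand), was 168 to 191 FPKM in PRA oil and 226 to 237 FPKM in PRA P4. In PRB it was 178 to 194 FPKM with oil and 214 to 243 FPKM with P4. Oaz1 rose by 0.33 in PRA (SE 0.05, limma, adjusted p = 4.38e-05) and by 0.33 in PRB (adjusted p = 4.06e-05). These calls depend on which scaling is used. After quantile normalization the Oaz1 changes were 0.05 (limma, adjusted p = 0.220) and 0.06 (adjusted p = 0.152), and both calls were lost. With median-ratio scaling they were 0.30 and 0.31, and both stayed called. The Oaz1 to Oaz2 ratio, which no scaling factor of a library can move, had means of 1.84 and 1.88 in the oil groups and 3.14 and 2.94 in the P4 groups of PRA and PRB. The ratio of Odc1 to the sum of both antizyme genes had means of 0.0745 with oil and 0.213 with P4 in PRA, and of 0.0790 and 0.179 in PRB. Antizyme is controlled mainly while it is translated, which RNA levels do not measure.

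Sat1 encodes spermidine/spermine acetyltransferase, which marks polyamines for export or oxidation, and here the strains parted (chromosome X, 155213132 to 155216449, minus strand). It measured 91.1, 96.2, 98.9 and 89.4 FPKM in PRA oil and 92.7, 94.5, 77.3 and 78.5 FPKM in PRA P4. In PRB it measured 94.1, 92.2, 91.2 and 85.7 FPKM with oil and 127, 144, 138 and 117 FPKM with P4. The 4 PRB P4 libraries were above all other 12 libraries, whereas the oil and P4 values of PRA overlapped. In PRB, Sat1 rose by 0.52 (SE 0.08, limma, adjusted p = 2.13e-05). In PRA the change was -0.13 (95% interval -0.30 to 0.03, limma, adjusted p = 0.127) and was not called. After quantile normalization the Sat1 change in PRA was -0.38 (adjusted p = 0.000384), a call for a fall, and that in PRB was 0.25 (adjusted p = 0.00939).

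Smox encodes spermine oxidase, which turns spermine back into spermidine with release of hydrogen peroxide (chromosome 2, 131491496 to 131525922, plus strand). It measured 31.8, 40.1, 33.5 and 47.5 FPKM in PRA oil and 82.4, 74.6, 62.6 and 68.9 FPKM in PRA P4. In PRB it measured 38.3, 32.1, 41.0 and 42.0 FPKM with oil and 144, 145, 128 and 129 FPKM with P4. Smox rose in both strains without overlap, and every PRB P4 library was above every PRA P4 library. The log2 change was 0.91 in PRA (SE 0.12, limma, adjusted p = 9.07e-06) and 1.81 in PRB (adjusted p = 8.05e-09), or 1.89-fold and 3.56-fold in mean FPKM.

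**Figure D2:**
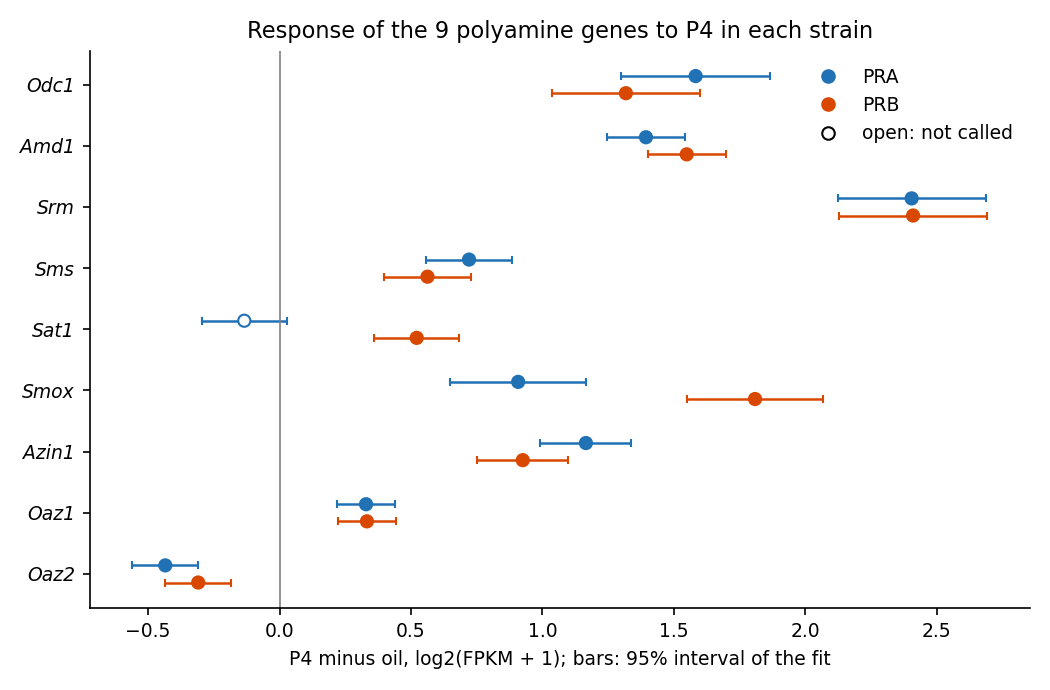
Log2 change with P4 of each of the 9 members in PRA and in PRB, with the 95% interval from the limma model. Srm changed most in both strains (2.40 and 2.41), Oaz2 lies below 0, and Smox and Sat1 lie higher in PRB.

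The response to P4 differed between the strains for 2 of the 9 members, against 2.28% of all features, and both were larger in PRB (1.47% of all features). The difference of the responses (PRB minus PRA) was 0.66 for Sat1 (SE 0.11, 95% interval 0.43 to 0.88, limma, adjusted p = 0.00662). For Smox it was 0.90 (SE 0.17, 95% interval 0.54 to 1.27, limma, adjusted p = 0.0150). Both calls held under all 23 alternative settings, with adjusted p between 0.00361 and 0.0460 for Sat1 and between 0.00848 and 0.0380 for Smox. Without PRB P4 replicate 3, which stood apart from its group, the differences were 0.63 for Sat1 (limma, adjusted p = 0.00931) and 0.93 for Smox (adjusted p = 0.0154). The summed level of the epithelial markers Krt8, Krt18, Epcam and Cdh1 was 345 to 429 FPKM in PRA P4 and 385 to 508 FPKM in PRB P4, with 0 of 4 called between the strains. Of the endothelial markers Pecam1, Cdh5 and Kdr, none at 0, 1 of 3 was called higher in PRB P4 than in PRA P4: Pecam1, with means of 45.4 and 32.3 FPKM. The summed endothelial level was 73.4 to 96.3 FPKM in PRA P4 and 95.8 to 113 FPKM in PRB P4. Pgr itself was called higher in PRB than in PRA with P4, by 0.57 (limma, adjusted p = 0.00575), and in all 24 alternatives. With oil its difference was 0.36 (adjusted p = 0.588), called only without PRB P4 replicate 3 (adjusted p = 0.0205). The difference of its responses was 0.21 (adjusted p = 0.583), and without that library it was 0.37 (adjusted p = 0.0332) and called. The part of these markers and of the Pgr level in the Sat1 and Smox results was not tested.

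The remaining 7 members were not called, and their intervals bound how far the responses may differ. For Odc1 the difference was -0.27 (95% interval -0.66 to 0.13) and for Srm it was 0.01 (-0.39 to 0.40). The interval of Azin1, -0.48 to 0.00, only just reached 0. Amd1 (-0.05 to 0.36), Sms (-0.39 to 0.07), Oaz1 (-0.15 to 0.16) and Oaz2 (-0.05 to 0.30) were bounded more closely than Odc1 and Srm.

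**Figure D3:**
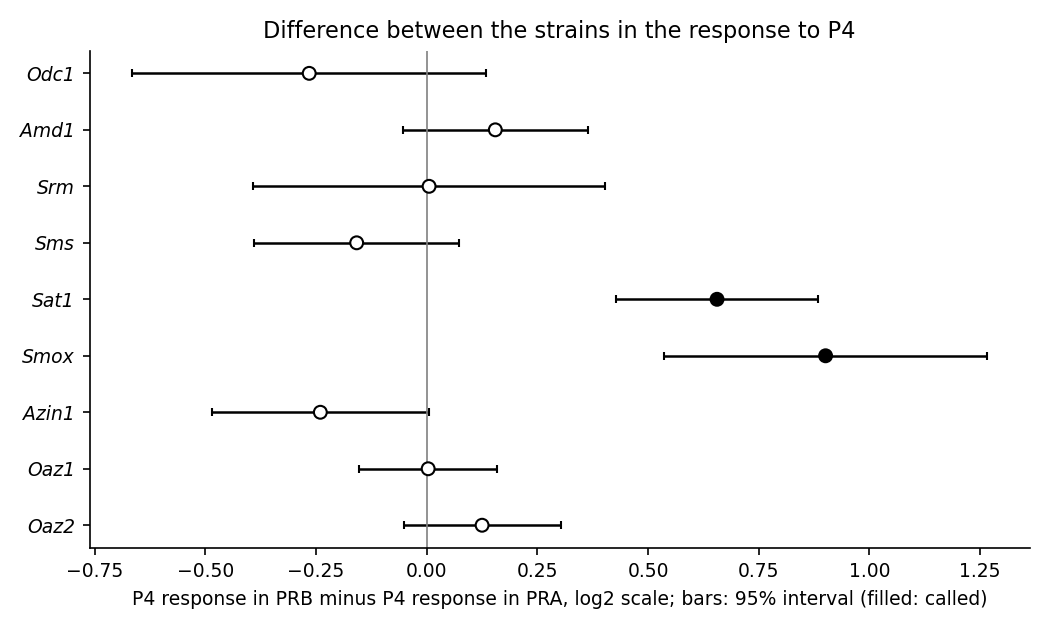
Response to P4 in PRB less that in PRA, as a log2 difference, for each member with its 95% interval. The intervals of Sat1 (0.43 to 0.88) and Smox (0.54 to 1.27) lie above 0, and those of the other 7 members include 0.

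Between the strains with oil, 0 of the 9 members were called, where 0.117% of all features were. None of the 9 had an unadjusted limma p under 0.05, and the values of the strains overlapped for all 9, where 3.39% of all features did not overlap. The oil differences of Sat1 and Smox were -0.05 (95% interval -0.21 to 0.11) and 0.01 (-0.24 to 0.27).

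With P4, 2 of the 9 members were called between the strains, both higher in PRB, where 16% of all features were called and 7.75% were higher. Sat1 was higher by 0.61 (SE 0.08, limma, adjusted p = 0.000192) and Smox by 0.91 (SE 0.12, adjusted p = 0.0003). Values of the strains did not overlap for 5 members, against 20.2% of all features: Sat1 and Smox were higher in PRB (9.23% of all features), and Odc1, Sms and Azin1 were lower (10.9%). The last 3 differed by -0.22 each (limma, adjusted p = 0.276 for Odc1, 0.0669 for Sms and 0.0729 for Azin1) and were not called over all 16 libraries. Fitted on the 8 P4 libraries alone, Odc1 was called lower (adjusted p = 0.0280). Sms was called without PRB P4 replicate 2 (-0.27, adjusted p = 0.0405) and Azin1 without PRB oil replicate 2 (-0.22, adjusted p = 0.0492).

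The order of the members by level changed with P4. With oil, Oaz1 was highest in both strains, followed by Oaz2 and Sat1, whose ranges overlapped, then Smox, with Sms lowest. Srm stood near Odc1 and Azin1 with oil, with overlapping ranges. With P4 it was second in PRA, at 117 ± 12.1 FPKM. In PRB with P4, Smox at 136 ± 9.11, Sat1 at 131 ± 12.0 and Srm at 124 ± 10.7 FPKM followed Oaz1, each overlapping the next (SD, n = 4). The Smox to Odc1 ratio had means of 1.80 and 1.77 with oil, and of 1.11 in PRA and 2.45 in PRB with P4.

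Promoters of 7 of the 9 members were matched by symbol in RefSeq for GRCm38.p6; Srm and Azin1 were not among them. Those of the pair whose response differed between the strains and that of Odc1, which rose in both, are shown as the 250 bases before the start of the RefSeq transcript, 5′ to 3′ on the gene's strand. Capitals mark matches to TGTNCT, a short form of the sequence that steroid receptors of the progesterone receptor's class bind, on either strand. The stretch shown for Sat1 lies at chrX:155216450-155216699 (minus strand), that for Smox at chr2:131491612-131491861 (plus strand) and that for Odc1 at chr12:17544623-17544872 (plus strand).
Sat1: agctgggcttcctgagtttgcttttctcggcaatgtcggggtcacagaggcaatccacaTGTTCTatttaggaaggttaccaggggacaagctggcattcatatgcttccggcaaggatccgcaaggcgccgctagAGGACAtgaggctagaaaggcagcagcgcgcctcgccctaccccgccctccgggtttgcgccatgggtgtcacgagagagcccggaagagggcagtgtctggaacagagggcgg
Smox: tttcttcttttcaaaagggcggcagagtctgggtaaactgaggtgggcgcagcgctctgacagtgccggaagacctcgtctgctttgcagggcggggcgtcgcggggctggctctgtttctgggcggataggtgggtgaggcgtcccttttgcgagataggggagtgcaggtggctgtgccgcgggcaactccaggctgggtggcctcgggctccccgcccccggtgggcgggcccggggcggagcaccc
Odc1: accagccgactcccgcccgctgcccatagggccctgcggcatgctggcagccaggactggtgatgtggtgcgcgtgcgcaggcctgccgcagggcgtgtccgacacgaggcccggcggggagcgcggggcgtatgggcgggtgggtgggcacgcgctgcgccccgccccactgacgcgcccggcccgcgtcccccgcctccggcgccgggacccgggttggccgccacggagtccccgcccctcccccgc
Sat1 holds 2 such matches, 1 on each strand, and Smox and Odc1 hold none. TGTNCT occurs in 50.5% of the 32851 promoter windows of 300 bases in the table, and 3 of the 7 members hold it (Sat1, Sms and Oaz2). The E-box CACGTG, which proteins of the Myc family bind, occurs in 7.15% of windows and in 1 member, Sms, and TATAAA in 13.6% and in 1 member, Oaz1. These are matches of letters in a short window and were not set against any measurement of binding.

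The pathway around the 9 genes was followed in 37 further genes in 7 lists, of which 29 passed the filter. In PRA 14 of the 29 rose and 12 fell, and in PRB 14 rose and 10 fell, beside 69.8% and 69.1% of all features called in either direction. Among genes of arginine and ornithine supply, 4 of 6 were tested, with 2 higher and 2 lower in PRA and 2 higher and 1 lower in PRB. Slc7a1, which encodes an importer of arginine, rose by 1.53 in PRA (limma, adjusted p = 1.78e-07) and 1.65 in PRB (adjusted p = 8.52e-08). Arg2, whose arginase makes ornithine in mitochondria, rose by 1.34 (adjusted p = 0.000110) and 1.04 (adjusted p = 0.000966). In the supply of S-adenosylmethionine, 3 of 4 genes were tested, with 2 higher and 1 lower in PRA and 1 higher and 1 lower in PRB. Mat2a, the gene of the synthetase's catalytic subunit, rose by 1.15 and 1.13.

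Of the methionine salvage genes, which recycle the methylthioadenosine left by both synthases, all 5 were tested, and 3 rose and 1 fell in each strain. The rise of Apip in PRB, 0.19 (limma, adjusted p = 0.0418), was lost in 12 of 24 alternatives, median-ratio scaling among them. Mtap, which takes the first step, rose by 1.11 in PRA and 1.03 in PRB. Of the 4 genes of hypusination, the modification that turns spermidine into part of the translation factor eIF5A, 3 rose in PRA and 4 in PRB. The rise of Eif5a2 in PRB, 0.30 (limma, adjusted p = 0.0274), was lost in 5 of 24 alternatives, 4 of which leave out 1 PRB library. Eif5a itself went from 188 ± 25.0 to 430.0 ± 33.1 FPKM in PRA and from 195 ± 16.6 to 396 ± 19.3 FPKM in PRB (SD, n = 4), log2 changes of 1.19 and 1.02.

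Transport and the remaining enzymes were mixed. Of 8 transport genes 5 were tested, with 2 higher and 3 lower in PRA and 1 higher and 3 lower in PRB. Atp13a3, a polyamine transporter of the P5B class, rose by 0.68 and 0.64, whereas its lysosomal relative Atp13a2 fell (-0.55 and -0.33). Slc22a3, an organic cation transporter, fell further (-1.89 and -1.84). Of 6 other enzymes and regulators 4 were tested: Amd2 rose by 1.48 and 1.62, and Sat2 fell (-0.77 and -0.67). Azin2, listed under its older symbol Adc, encodes a second antizyme inhibitor; it fell by 1.39 in PRA (limma, adjusted p = 7.92e-09) and fell by 1.19 in PRB (adjusted p = 3.47e-08), where Azin1 rose.

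**Figure D4:**
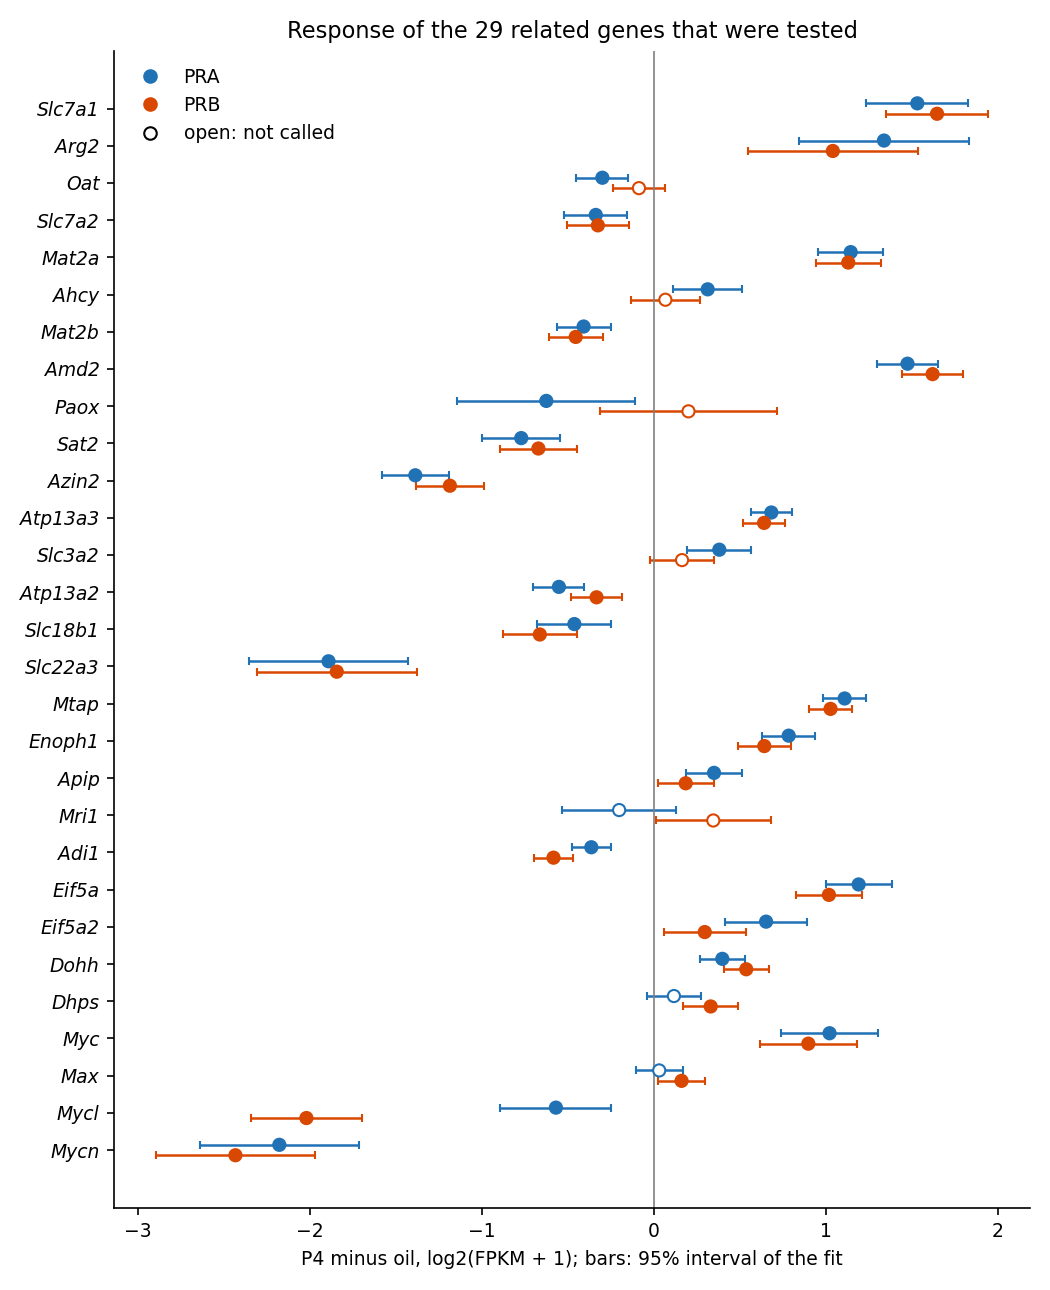
Log2 change with P4 in PRA and in PRB of the genes around the members that passed the filter, by list. Among these genes Mycn has the lowest values in both strains (-2.18 and -2.43), and Mycl (-0.57 and -2.02) differs most between the strains.

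The Myc family, whose product Myc is a known activator of Odc1, held 1 higher and 2 lower of 4 genes in PRA and 2 higher and 2 lower in PRB. Myc rose by 1.02 in PRA (limma, adjusted p = 6.33e-06) and 0.90 in PRB (adjusted p = 2.29e-05). Mycn fell in both (-2.18 and -2.43). Mycl was 10.6, 14.7, 10.7 and 17.4 FPKM in PRA oil and 7.74, 8.59, 8.09 and 9.67 FPKM in PRA P4. In PRB, Mycl was 16.8, 12.8, 15.1 and 18.5 FPKM with oil and 2.53, 2.81, 3.48 and 3.71 FPKM with P4. The response of Mycl differed between the strains by -1.45 (SE 0.21, limma, adjusted p = 0.00353), the 1 call among the 29 genes in the fit of all 16 libraries. The rise of Max in PRB, 0.16 (limma, adjusted p = 0.0341), was lost in 7 of 24 alternatives and turned in direction in 1.

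Mri1, which encodes an isomerase of methionine salvage, was at higher levels in PRB with oil as well as with P4, and some of its calls rest on 1 library. It was 20.4, 19.99, 20.3 and 21.4 FPKM in PRA oil and 14.9, 14.2, 16.1 and 28.5 FPKM in PRA P4. In PRB, Mri1 was 30.2, 31.1, 30.5 and 34.1 FPKM with oil and 35.0, 40.2, 42.5 and 44.0 FPKM with P4. Every PRB library was above every PRA library. With P4 it was higher in PRB by 1.14 (limma, adjusted p = 0.000396), a call kept in all 24 alternatives. With oil the difference was 0.59 (adjusted p = 0.311), not called in the fit of all libraries, but called with the oil libraries only (adjusted p = 0.00606) and without PRA P4 replicate 4 (adjusted p = 0.00287). The difference of its responses was 0.55 (limma, adjusted p = 0.227), and without PRA P4 replicate 4 it was 0.77 (adjusted p = 0.00250) and called. Without that library the change with P4 in PRA was also called, at -0.42 (limma, adjusted p = 0.000156), and that in PRB at 0.35 (adjusted p = 0.000380).

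Between the strains with oil 0 of the 29 genes were called in the fit of all libraries, where 0.117% of all features were, though 2 had an unadjusted limma p under 0.05. With P4 3 were higher (Mri1, Slc7a2 and Dhps) and 3 lower in PRB (Mycl, Adi1 and Eif5a2), where 16% of all features were called. Of these 6 calls, that of Slc7a2 (0.26, limma, adjusted p = 0.0499) was lost in 18 of 24 alternatives, that of Eif5a2 (-0.36, adjusted p = 0.0407) in 12 and that of Dhps (0.28, adjusted p = 0.0189) in 3.

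Paox, whose product oxidizes the acetylated polyamines that Sat1 makes, shows a result that rests on libraries. It was 62.9, 28.4, 62.5 and 28.4 FPKM in PRA oil and 31.2, 31.4, 22.4 and 24.5 FPKM in PRA P4. In PRB it was 31.6, 44.7, 35.0 and 32.3 FPKM with oil and 46.7, 41.3, 42.2 and 35.0 FPKM with P4. PRA oil replicates 1 and 3 were above all other 14 libraries, and the oil and P4 groups of PRA overlapped. Paox fell by 0.62 in PRA (SE 0.24, limma, adjusted p = 0.0317), and its change in PRB was 0.20 (adjusted p = 0.472); the difference of the responses was 0.83 (adjusted p = 0.239). The summed level of the adipose markers Adipoq, Plin1 and Lep, none of them at 0 throughout, was 218, 60.7, 180 and 22.8 FPKM in PRA oil replicates 1 to 4, and at most 114 FPKM in the other groups. Without PRA oil replicates 1 and 3, an alternative chosen after the data were seen, the change of Paox in PRA was -0.07 (limma, adjusted p = 0.739). Those libraries hold the highest Paox values, so leaving them out lessens the fall whatever its source. The part of the adipose markers in the Paox result was not tested. The call in PRA was lost in 6 of 24 alternatives, among them those that left out only PRA P4 replicate 3 or only PRA P4 replicate 4. Paox exons overlap those of Echs1 on the opposite strand, and 25.9% of its 50-base windows occur in other genes.

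**Figure D5:**
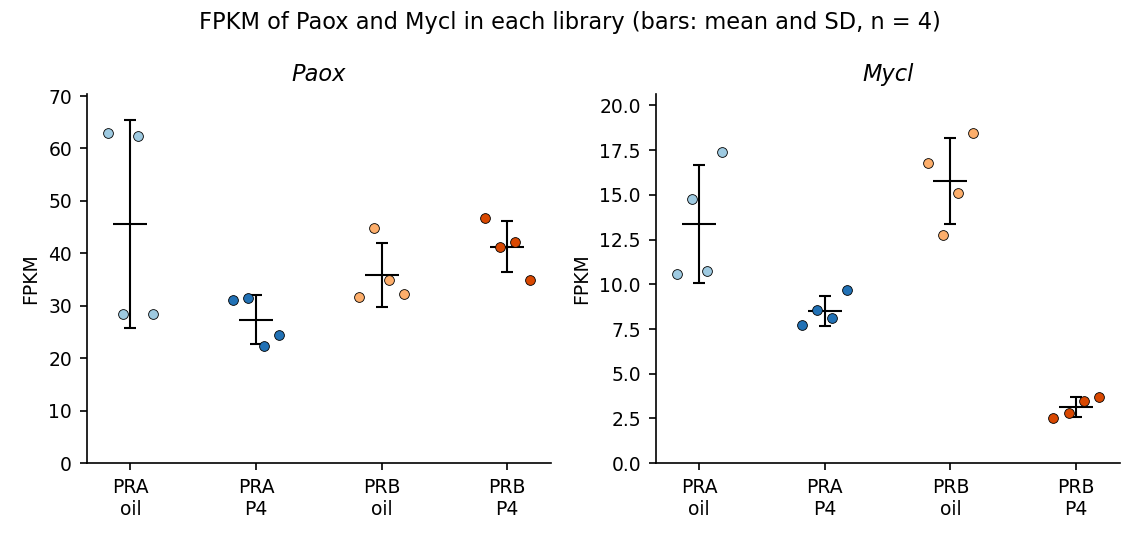
FPKM of Paox and Mycl in each library, with the mean and SD of 4 libraries as bars. Paox splits into a pair near 63 FPKM and a pair near 28 FPKM within PRA oil, and Mycl is lowest in PRB P4, at 2.53 to 3.71 FPKM.

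The same PRA oil replicates 1 and 3 held the lowest PRA oil values of Odc1, Srm, Sms, Amd1, Smox and Azin1. Without them the P4 changes in PRA were 1.46 for Odc1, 2.20 for Srm, 0.64 for Sms, 1.31 for Amd1, 0.70 for Smox and 1.08 for Azin1, and all 6 were still called. The difference of the responses was then 0.64 for Sat1 (limma, adjusted p = 0.0460) and 1.10 for Smox (adjusted p = 0.00848).

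Features named as clones, predicted genes or small RNAs were left out of a search for genes of like values. Across the 16 libraries, in which strain and treatment differ between the 4 groups, the remaining features with values most like those of Odc1 were Cox5a, Uqcc2 and Nudcd2 (Pearson r of log2 values 0.988 for each). For Smox they were Gata2 (0.980), Ehmt1 (0.979) and Sema3c (0.978). For Sat1 they were Epb4.1 (0.976), Bik (0.948) and Map7 (0.927); Epb4.1 had mean levels of 58.3 and 51.8 FPKM in PRA oil and P4, and of 54.0 and 98.3 FPKM in PRB oil and P4. These correlations are descriptions.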

How the data were processed

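Whole-uterus RNA was measured in 16 libraries, 4 in each of 4 groups. The authors deposited FPKM values per feature and library, per the file headers. TopHat2 2.0.4, Cufflinks 2.0.2, Cuffdiff and mm10 are named in the submitters' processing notes, without the role or order of each. Which annotation was used, whether counting was stranded and how libraries were scaled is not given in the sources used here. Values were compared as log2(FPKM + 1), which understates changes of low genes, with limma 3.58.1 in R 4.3.3 and an intensity trend. Features whose mean level reached 1 FPKM (15408 of 31274, of which 7717 were 0 throughout) entered 1 model of all libraries, with 5 contrasts and Benjamini-Hochberg adjustment. Genes named are the 9 members, Pgr, the genes of 7 related lists, markers and, for Odc1, Sat1 and Smox, the 3 most correlated features. Features named as clones, predicted genes or small RNAs were left out of that ranking. Members and lists were chosen with earlier results of these data known. Gene positions and exons come from GENCODE on GRCm38, promoters from RefSeq. The procedure was also run on simulated data in which few features changed, unlike these data, and no conclusion is drawn from that run. Alternatives were another pseudocount (0.1), no filter, other scalings, no trend, fewer libraries and a replicate block. Levels and ratios were computed with Python 3.11.15.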

Additional observations from a re-analysis of the deposited data

Results flagged for a closer look

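Sat1, Smox and Mycl responded differently to P4 in the strains, by tests of the difference itself (PRB minus PRA, log2): 0.66 for Sat1, 0.90 for Smox and -1.45 for Mycl.

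Among the 39 genes followed, in 4 groups each, 8 of 156 groups had a library far from the other 3, and chance gives about 1 in 20. Among the members this held for Oaz1 in PRA oil replicate 1, at 168 FPKM against 189 to 191. In PRA, Amd2 was 25.6 FPKM in oil replicate 4 against 21.4 to 21.8, and Mri1, a methionine salvage gene, was 28.5 FPKM in P4 replicate 4 against 14.2 to 16.1. In PRB P4 replicate 1, Azin2 was 5.32 FPKM against 3.73 to 3.94, and Atp13a2 was 15.6 FPKM against 16.5 in the other 3. In PRB P4 replicate 3, Slc3a2, a subunit of amino acid transporters, was 140.2 FPKM against 175 to 180, Max was 66.2 FPKM against 74.4 to 74.8, and Pgr was 78.5 FPKM against 121 to 126.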

How the results depend on the processing

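Of 45 results of the members (9 genes in 5 contrasts), 39 kept their side of the threshold under every alternative run, and their direction where called. The exceptions are those of Oaz1, Sat1, Odc1, Sms and Azin1 given above. Of all 195 results of named genes, 163 kept theirs in the same way. A change of sign in a result that stayed uncalled was not counted as a loss. With oil, the Odc1 difference between strains was 0.04 and ranged from -0.10 to 0.17 over the alternatives. Under quantile normalization the PRA calls of Slc7a2, Slc3a2 and Ahcy were also lost. The features called between the strains with oil numbered 18, against 33 without the filter, 6 with the libraries of the contrast only and 4 without PRA oil replicates 1 and 3, an alternative chosen after the data were seen. With P4 they numbered 2471, against 1640 with the P4 libraries only. For the difference of the responses they numbered 352, against 85 without PRA oil replicates 1 and 3. Leaving out 1 library at a time, the features called ranged from 10206 to 11121 for P4 in PRA, 10183 to 10676 for P4 in PRB, 8 to 30 between strains with oil, 1416 to 2632 between strains with P4 and 155 to 508 for the difference of responses. The members called stayed at 8, 9, 0 and 2 in the first 3 contrasts and the last, and were 2 to 3 between strains with P4. The count of 2471 was lowest without PRA P4 replicate 4, and that of 352 rose to 508 without PRB P4 replicate 3. Quantile normalization reversed Max, from 0.03 to -0.20 in PRA and from 0.16 to -0.11 in PRB. Same-numbered replicates did not pair: 6 of 24 pairs of deviations had a correlation over 0.1 (range -0.23 to 0.31), and 4 of 16 libraries correlated best with their own number. With a replicate block the features called were 10798, 10705, 19, 2569 and 467, and the members 8, 9, 0, 2 and 2. FPKM carries no counts, so no count test was run.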
